A study of Mus musculus with 3 samples.

Results

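Neuropeptide receptors are the membrane proteins through which neurons and glia read peptide signals, and 41 genes for such receptors, listed by symbol, were followed here across 3 sequencing libraries. All 41 were found among the 32531 gene rows of the count tables. The RNA came from the deep cerebellar nuclei, through which the cerebellum sends its output, of adult Htr6-TRAP NIDA113 mice on the C57BL/6J strain. In translating ribosome affinity purification (TRAP), a ribosomal protein fused to EGFP (here Rpl10a, in a line named for the serotonin receptor gene Htr6) is pulled down with antibodies to EGFP, and the RNA on those ribosomes is sequenced. All libraries are immunopurified, carry the transgene and form a single group (replicates 1, 2 and 3). No untagged, treated or unpurified arm was analysed, so levels describe the purified RNA and give no enrichment over the tissue. Whether separate mice stand behind the 3 libraries is not in the labels, and p-values measure only the spread between them, which may be technical.

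Most neuropeptide receptors span the membrane repeatedly and signal through G proteins. Gs-coupled receptors raise cyclic AMP, Gi-coupled receptors lower it and open potassium channels, and Gq-coupled receptors release calcium from internal stores. Natriuretic peptide receptors are built differently: some are guanylyl cyclases that make cyclic GMP, and another binds the peptides and removes them. In the cerebellum, peptides such as corticotropin-releasing hormone are known from climbing and mossy fibre afferents, and they modulate the fast transmission of the cortex and the nuclei.

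The libraries held 7695397, 8842058 and 7622010 counts on genes in replicates 1, 2 and 3. Levels are CPM, counts scaled to a common library size by edgeR's TMM method, given as mean ± SD over n = 3 libraries. Where different genes are compared, CPM is divided by the gene's exon length (CPM per kb). With 3 counts as the limit behind a count of 0, undetected genes could lie as high as 0.397, 0.340 and 0.385 CPM in replicates 1, 2 and 3, counting error only. The Htr6 gene itself had 0, 7 and 0 counts. All 12 pan-neuronal genes of the marker list were counted in every library, and their summed level was 18867 to 26928 CPM. The 10 granule cell markers (3806 to 4464 CPM) and the 9 Purkinje cell markers (5706 to 7628 CPM) were also counted in every library. So were the 9 astrocyte and Bergmann glia markers (2612 to 2991 CPM) and the 7 oligodendrocyte markers (2905 to 3677 CPM). The Purkinje cell sum was mostly Itpr1, Rgs8 and Car8, while Pcp4, Gng13 and Skor2 had means of 0.339, 4.03 and 7.35 CPM. Summed levels were also taken for 6 markers of GABAergic and glycinergic neurons (406 to 945 CPM, with Sox14 at 0), 9 of glutamatergic deep nuclei neurons (479 to 740 CPM, with Lmx1b at 0), 7 of molecular layer and Golgi interneurons (375 to 508 CPM) and 4 of unipolar brush cells (800 to 1440 CPM, mostly Plcb4). They were taken as well for 5 oligodendrocyte precursor markers (142 to 292 CPM), 10 vascular and meningeal markers (93.6 to 149 CPM, with Cldn5 at 0) and 8 microglial markers (22.3 to 73.4 CPM, with C1qa, Aif1 and Trem2 at 0), while 4 choroid plexus markers stayed at or under 3.40 CPM. Markers of cells other than deep nuclei neurons were thus in this RNA, and which cells each receptor RNA came from was not tested. In such bulk RNA, fewer cells of a type and less RNA per cell cannot be told apart.

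Of the 41 receptor genes, 13 had at least 1 count in every library, 15 in some libraries and 13 in none. The 13 counted in every library are 31.7% of the list. Over all gene rows that share was 34.2%, and over the 19764 protein-coding genes it was 50.8%. The 13 genes at 0 in every library are also 31.7%, beside 50.6% of all gene rows and 33.2% of protein-coding genes. A mean of at least 10 CPM was reached by 8 receptor genes (19.5%), beside 25.1% of all rows and 38.4% of protein-coding genes. The median of the 41 mean levels was 0.794 CPM, beside 0 CPM for all rows and 3.09 CPM for protein-coding genes. Per exon length, the medians were 0.180 CPM per kb for the receptors and 0.804 CPM per kb for protein-coding genes. The numbers counted in every library were 15, 16 and 14 without replicates 1, 2 and 3.

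A small set of genes carried most of the receptor RNA. Per exon length, Vipr2, Adcyap1r1, Ntsr2, Oprm1 and Npr2 were the highest, in this order. Together they held 58.3%, 85.7% and 78.0% of the summed receptor level in replicates 1, 2 and 3. Vipr2 and Adcyap1r1 alone held 36.4%, 59.9% and 60.0%. The means of neighbouring genes in the order differed by less than the larger of their SDs in each of these cases. After these came Cckbr, Crhr1, Sstr3, Oprl1 and Sstr1, whose mean levels lay between 3.83 and 1.62 CPM per kb.

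**Figure D1:**
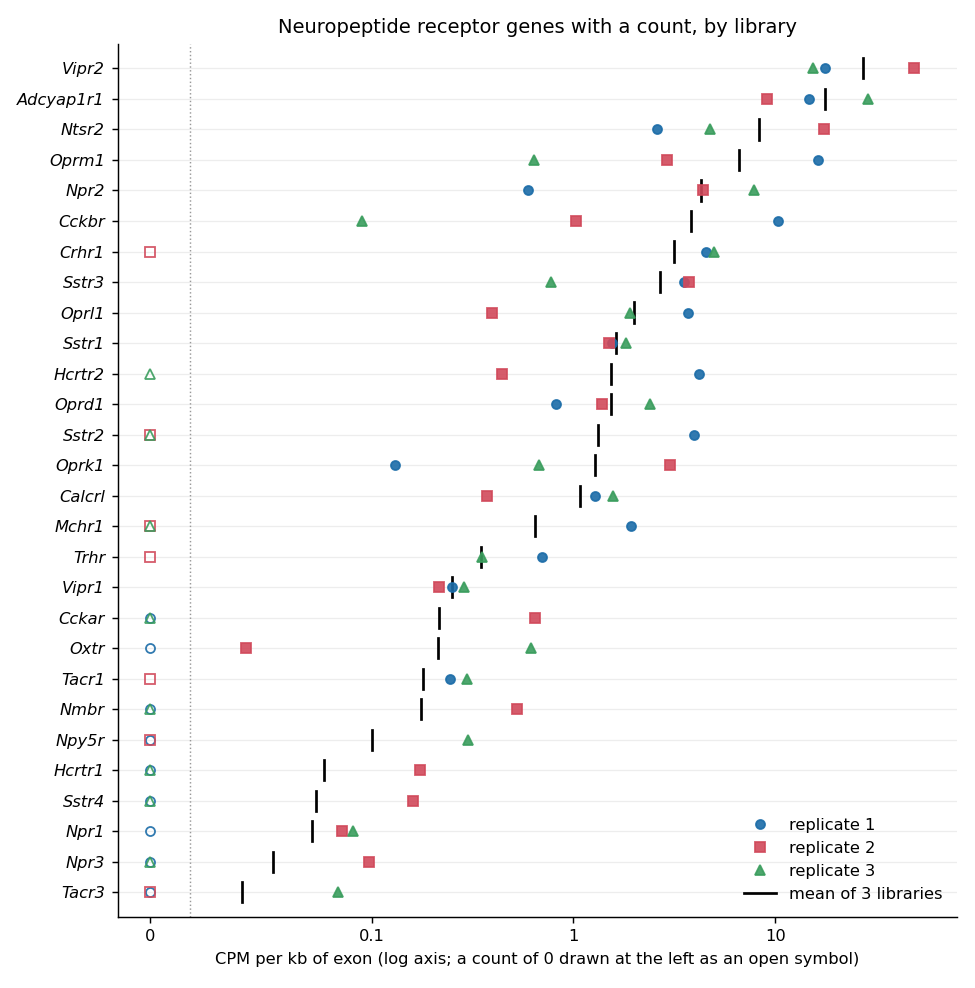
CPM per kb of exon on a log axis for the 28 receptor genes with any count, 1 point per library and a bar at the mean of 3 libraries, with counts of 0 drawn open at the left. Vipr2 and Adcyap1r1 lie highest, while Sstr1 and Vipr1 have the 3 libraries closest together.

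The receptors for VIP and PACAP were the highest family. Both peptides act through Gs: PAC1, the product of Adcyap1r1, prefers PACAP, while VPAC1 (Vipr1) and VPAC2 (Vipr2) bind both. Vipr2 (ENSMUSG00000011171.11; mm10 chromosome 12, plus strand, 116077726 to 116146261; longest coding transcript of 13 exons) had 597, 1910 and 535 counts. These are 79.0, 217 and 68.7 CPM in replicates 1, 2 and 3, with 95% Clopper-Pearson intervals of 72.8 to 85.6, 207 to 227 and 63.0 to 74.7 CPM that cover counting error only. The mean was 121 ± 82.7 CPM (SD, n = 3), and 73.8 CPM without replicate 2, the library that stood above the others. Per exon length it was 27.2 ± 18.5 CPM per kb, a level exceeded by 6.16% of protein-coding genes. Adcyap1r1 (ENSMUSG00000029778.12, chromosome 6, plus strand, 55451978 to 55501451, 17 exons) had 733, 529 and 1486 counts, or 97.0, 60.0 and 191 CPM. Its mean was 116 ± 67.3 CPM or 17.6 ± 10.2 CPM per kb, exceeded by 10.4% of protein-coding genes, and replicate 3 was its highest library.

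Vipr1, on chromosome 9, was low but even. It had 11, 11 and 13 counts, or 1.46 ± 0.21 CPM (SD, n = 3). Adcyap1r1 exceeded Vipr1 by 5.50 ± 0.68 on the log2(CPM per kb + 0.1) scale, with Adcyap1r1 above in all 3 libraries. The difference of Vipr1 minus Vipr2 was -6.08 ± 1.04, with Vipr1 lower in 3 of 3. For every pair the test was an exact permutation test that flips the signs of the library differences, two-sided, whose smallest p with 3 libraries is 0.25. Both pairs reached it (0.50 after Benjamini-Hochberg adjustment over the 12 pairs tested). Per exon length, the receptor genes of the family summed to 45.0 ± 12.6 CPM per kb and the ligand genes to 2.61 ± 1.22 CPM per kb. Adcyap1, the PACAP precursor gene, had 52, 65 and 118 counts (9.80 ± 4.63 CPM) and Vip had 0, 1 and 0.

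The promoters of these highest genes are shown beside those of 2 receptor genes at 0 in every library, so that sequence and detection can be read together. Each line holds the 250 bases before the RefSeq start (build GRCm38.p6, plus strand), with each CG dinucleotide in capitals. The windows are chr12:116077476-116077725 for Vipr2, chr6:55451728-55451977 for Adcyap1r1, chr2:180499726-180499975 for the neurotensin receptor gene Ntsr1 and chr10:122448249-122448498 for the vasopressin receptor gene Avpr1a.
Vipr2: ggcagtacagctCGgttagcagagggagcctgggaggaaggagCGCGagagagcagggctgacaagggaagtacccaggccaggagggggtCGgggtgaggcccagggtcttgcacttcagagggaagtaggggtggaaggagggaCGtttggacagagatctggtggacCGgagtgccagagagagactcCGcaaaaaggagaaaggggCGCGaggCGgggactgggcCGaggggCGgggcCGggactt
Adcyap1r1: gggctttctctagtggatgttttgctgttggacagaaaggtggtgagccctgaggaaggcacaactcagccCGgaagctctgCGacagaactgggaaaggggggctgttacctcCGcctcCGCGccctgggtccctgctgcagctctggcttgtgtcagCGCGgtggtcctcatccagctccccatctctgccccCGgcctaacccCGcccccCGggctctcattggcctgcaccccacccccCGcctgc
Ntsr1: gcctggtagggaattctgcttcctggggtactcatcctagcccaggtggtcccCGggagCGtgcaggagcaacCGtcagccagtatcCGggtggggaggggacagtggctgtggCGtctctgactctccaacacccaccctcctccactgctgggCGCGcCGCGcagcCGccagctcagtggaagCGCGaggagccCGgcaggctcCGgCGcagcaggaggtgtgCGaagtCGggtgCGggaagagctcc
Avpr1a: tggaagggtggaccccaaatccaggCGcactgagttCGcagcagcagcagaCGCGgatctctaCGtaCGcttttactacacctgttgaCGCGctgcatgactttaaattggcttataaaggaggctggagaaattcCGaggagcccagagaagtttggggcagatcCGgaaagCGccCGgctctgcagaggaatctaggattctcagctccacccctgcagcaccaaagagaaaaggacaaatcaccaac
The counted genes Vipr2 and Adcyap1r1 hold 13 and 11 CG dinucleotides, and the uncounted genes Ntsr1 and Avpr1a hold 18 and 12. Both uncounted genes shown lie above the median of 10 for the 9 receptor genes at 0 with 1 start, which range from 4 to 18. Of the 41 receptor genes, 29 have exactly 1 start in the RefSeq promoter table. Among these, the median number of CG dinucleotides was 12 for 8 genes counted in every library, 9.5 for 12 counted in some and 10 for 9 at 0. Over protein-coding genes with 1 start, the same medians were 17, 11 and 2, for 6199, 2007 and 4706 genes. At least 1 CG stood in 100% of the 29 receptor windows and in 92.4% of the 12912 protein-coding ones. The receptor medians thus spanned a narrower range across detection classes than the protein-coding ones, a description on few genes with no test.

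Among the remaining Gs-coupled receptors, Crhr1 and Calcrl were low and Crhr2, Mc3r and Mc4r were at 0. Crhr1, the main receptor of corticotropin-releasing hormone (chromosome 11, positions 104132855 to 104175523, plus strand), had 84, 0 and 95 counts. These are 11.1, 0 and 12.2 CPM, a mean of 7.77 ± 6.75 CPM (SD, n = 3), so replicates 1 and 3 were alike and replicate 2 had none. Crhr2, which prefers urocortins, had no count in any library. Against a floor of 3 counts per library for Crhr2, the mean level of Crhr1 per exon length was at least 43.2-fold higher. It was at least 31.3-fold higher without replicate 3, and both bounds cover counting error only. The mean log2 difference had an exact sign-flip permutation p of 0.50, with Crhr1 higher in 2 of 3 libraries. With Crhr2 at 0, no library could have had the opposite sign. The ligand gene Crh was at 0 in every library, and of the urocortin genes Ucn3 had 1 count in replicate 3.

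Calcrl encodes the shared core of the receptors for CGRP and adrenomedullin, which a RAMP protein completes. It had 47, 16 and 60 counts (5.25 ± 3.06 CPM; SD, n = 3). Ramp1, the partner for CGRP, had 0, 41 and 0 counts, and Ramp2, a partner for adrenomedullin, had 1, 10 and 3. Replicate 2 was thus lowest for Calcrl and highest for both RAMP genes, and Ramp3 had no count. The vascular and meningeal marker list, which includes endothelial genes, summed to 93.6, 109 and 149 CPM in the same libraries, and its part in the Calcrl counts was not tested. The melanocortin receptor genes Mc3r and Mc4r, targets of peptides of the proopiomelanocortin precursor, had no count, and neither had Pomc. Mrap2, an accessory protein gene of these receptors, had 12, 70 and 63 counts.

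**Figure D2:**
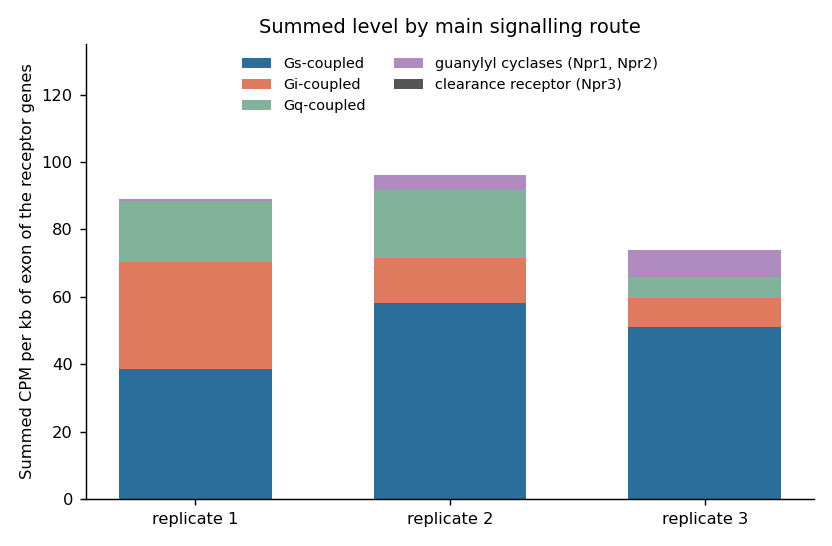
Summed CPM per kb of exon of all 41 receptor genes in each library, stacked by main signalling route (8 Gs-coupled, 15 Gi-coupled, 15 Gq-coupled, 2 guanylyl cyclases and the clearance receptor). The Gs-coupled sum was 38.5, 58.3 and 51.1 CPM per kb and the Gi-coupled sum 31.9, 13.1 and 8.51 in replicates 1, 2 and 3.

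By signalling route, the 8 Gs-coupled receptors made up 43.2%, 60.5% and 69.3% of the summed level per exon length in replicates 1, 2 and 3. The 15 Gi-coupled receptors held 35.9%, 13.6% and 11.5%, with replicate 1 the highest. The 15 Gq-coupled receptors held 20.3%, 21.1% and 8.40%. Coupling was assigned by the main G protein of each receptor, and several receptors use more than 1. The 6 listed G protein genes ranged widely, with Gnao1 at 2547 ± 133 CPM, Gnas at 2097 ± 241 CPM, Gnai1 at 572 ± 180 CPM, Gnaq at 247 ± 68.2 CPM, Gna11 at 60.0 ± 13.6 CPM and Gnai2 at 22.9 ± 14.3 CPM (SD, n = 3). Of the 15 partner genes listed (G proteins, receptor kinases, arrestins, RAMP and accessory genes), 13 were counted in every library.

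All 4 opioid receptor genes were counted in every library. These Gi-coupled receptors bind enkephalins, endorphin, dynorphins and nociceptin. Oprm1, the mu receptor gene (ENSMUSG00000000766.18, chromosome 10, plus strand, 6758506 to 7038198), had 990, 207 and 40 counts, or 131, 23.5 and 5.13 CPM. The libraries differed 25.5-fold, and the mean of 53.2 ± 68.0 CPM (SD, n = 3) was 14.3 CPM without replicate 1. Oprk1, the kappa receptor gene on chromosome 1, had 9, 243 and 48 counts (11.6 ± 14.0 CPM), so its highest library was replicate 2, and its mean was 3.68 CPM without that library. Oprl1, the nociceptin receptor gene, had 105, 13 and 56 counts (7.52 ± 6.22 CPM, or 4.33 CPM without replicate 1), and Oprd1, the delta receptor gene, had 25, 49 and 75 counts (6.17 ± 3.20 CPM). Each of the libraries was thus the highest for at least 1 opioid receptor gene.

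The order of the opioid receptors was not stable. Oprm1 minus Oprk1 gave 2.02 ± 3.59 on the log2(CPM per kb + 0.1) scale, with Oprm1 higher in 1 of 3 (exact sign-flip permutation p = 1.0). The difference was -0.05 without replicate 1, which alone sets its direction. Oprl1 minus Oprm1 gave -1.09 ± 2.21, with Oprl1 higher in 1 of 3 (exact sign-flip permutation p = 0.50). Leaving out replicate 1, 2 or 3 gave -0.58, -0.33 and -2.36, in that order. Of the opioid precursor genes, Penk, which encodes the enkephalins, had 464, 526 and 609 counts (66.4 ± 10.2 CPM). Pdyn had 0, 0 and 12 counts, and Pnoc and Pomc had none. The exons of Oprm1 overlap those of Ipcef1 on the other strand by 96 bases. Where strand was not used, reads there could be set apart as on several genes and be missing from Oprm1.

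Somatostatin receptors, also Gi-coupled, were represented by Sstr3 and Sstr1. Sstr3, known from the primary cilia of neurons, had 115, 143 and 26 counts (11.6 ± 7.2 CPM; SD, n = 3), with replicate 3 the lowest. Sstr1 had 24, 27 and 29 counts, or 3.32 ± 0.35 CPM, the smallest relative spread of all 28 counted receptors. Sstr2 had 64, 0 and 0 counts, Sstr4 had 0, 2 and 0, and Sstr5 had none. Sstr1 minus Sstr2 gave 2.32 ± 3.13 on the log2(CPM per kb + 0.1) scale, with Sstr1 higher in 2 of 3 (exact sign-flip permutation p = 0.50). Leaving out replicate 1, 2 or 3 gave 4.13, 1.48 and 1.35, in that order.

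The other Gi-coupled receptors were at 0 in at least 2 libraries each. Npy1r and Npy2r, the main receptors of neuropeptide Y in brain, had no count in any library, and Npy5r had 0, 0 and 6 counts. The neuropeptide Y gene Npy had 0, 138 and 1 counts. All 3 galanin receptor genes, Galr1, Galr2 (a Gq-coupled member) and Galr3, were at 0, as was Gal. Of the 1245 exonic bases of Galr3, 363 overlap Gcat on the same strand, where reads could be set apart as on several genes. Mchr1, the receptor of melanin-concentrating hormone, had 32, 0 and 0 counts, or 4.24 CPM in replicate 1 (95% interval 2.90 to 5.98), and its ligand gene Pmch had none.

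Among the Gq-coupled receptors, only Ntsr2 and Cckbr were counted in every library. Ntsr2, the low-affinity neurotensin receptor gene, which in brain is known from astrocytes (ENSMUSG00000020591.11, chromosome 12, plus strand, 16653382 to 16660227), had 61, 479 and 116 counts. That is 8.08, 54.4 and 14.9 CPM, a mean of 25.8 ± 24.99 CPM (SD, n = 3) and 11.5 CPM without replicate 2, its highest library. The 9 astrocyte and Bergmann glia markers summed to 2612, 2619 and 2991 CPM in replicates 1, 2 and 3. The highest among them were Slc1a2 with 9485, 10864 and 11975 counts, Aldoc with 5846, 5871 and 5061, and Aqp4 with 1839, 2316 and 2439. Slc1a3 had 960, 2207 and 1990 counts, Gfap had 196, 345 and 217, and S100b had 1195, 1144 and 1024. The lowest by mean CPM were Aldh1l1 with 22, 45 and 59 counts, Gja1 with 51, 164 and 145, and Gdf10 with 137, 119 and 397. The part of these glia in the Ntsr2 counts was not tested. Ntsr1, the high-affinity receptor gene, had no count. Against a floor of 3 counts per library for Ntsr1, the mean level of Ntsr2 per exon length was at least 86.5-fold higher. It was at least 36.9-fold higher without replicate 2, and both bounds cover counting error only. The log2 difference of Ntsr2 minus Ntsr1 was positive in all 3 libraries (exact sign-flip permutation p = 0.25). That sign was fixed once Ntsr1 had no count and Ntsr2 was counted in every library. The neurotensin gene Nts had 0, 9 and 23 counts.

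Cckbr, the cholecystokinin receptor gene that predominates in brain, had 224, 26 and 2 counts (10.9 ± 16.2 CPM; SD, n = 3), and its mean was 1.60 CPM without replicate 1. Cckar had 0, 21 and 0 counts. Cckbr minus Cckar gave 2.74 ± 3.44 on the log2(CPM per kb + 0.1) scale, higher in 3 of 3 (exact sign-flip permutation p = 0.25), and 0.76 without replicate 1. The sign rests on 26 against 21 counts in replicate 2. In replicate 3 it rests on 2 counts against 0, under the limit of 3 counts behind a 0. The ligand gene Cck ran the other way over the libraries, with 138, 506 and 1444 counts (87.0 ± 87.4 CPM). For somatostatin, the summed receptor level was likewise highest in replicate 1 and lowest in replicate 3 (9.03, 5.41 and 2.59 CPM per kb), while the ligand gene Sst had 282, 751 and 2263 counts. Within this family, however, Sstr1 was highest in replicate 3, with 24, 27 and 29 counts. Not every family ran this way: the neurotensin receptors summed to 2.59, 17.4 and 4.77 CPM per kb, beside 0, 0.818 and 2.36 for Nts. With 3 libraries no correlation is given for any family.

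The remaining Gq-coupled receptors were counted in some libraries or in none. Hcrtr2, an orexin receptor gene, had 194, 24 and 0 counts (9.47 ± 14.1 CPM; SD, n = 3), or 1.36 CPM without replicate 1. Hcrtr1 had 0, 4 and 0, and their difference, Hcrtr1 minus Hcrtr2, was -2.13 ± 2.88 on the log2(CPM per kb + 0.1) scale (exact sign-flip permutation p = 0.50). It was -0.49 without replicate 1. Trhr, the receptor gene of thyrotropin-releasing hormone, had 21, 0 and 11 counts, and Tacr1, the substance P receptor gene, had 12, 0 and 15. Both were at 0 in replicate 2, as was Crhr1. Tacr3 had 0, 0 and 2 counts, with a Tacr1 minus Tacr3 difference of 1.01 ± 0.91 (exact sign-flip permutation p = 0.50) and of 0.62 without replicate 1. The oxytocin receptor gene Oxtr had 0, 1 and 23 counts, and the neuromedin B receptor gene Nmbr had 0, 15 and 0. The exons of Nmbr overlap an antisense gene, B230364G03Rik, by 504 bases. Avpr1a, Tacr2 and Grpr, the gastrin-releasing peptide receptor gene, had no count. Among their ligand genes, Oxt, Avp, Tac1, Nmb, Grp, Hcrt and Trh had no count either, and Tac2 had 0, 0 and 7.

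Of the natriuretic peptide receptors, Npr2 made up nearly all the signal. Npr2 encodes the guanylyl cyclase that responds to C-type natriuretic peptide (ENSMUSG00000028469.15, chromosome 4, plus strand, 43631935 to 43651244, 22 exons). It had 21, 181 and 286 counts, or 2.78, 20.5 and 36.7 CPM, a mean of 20.01 ± 16.97 CPM (SD, n = 3) with replicate 1 far below the others and 11.7 CPM without replicate 3. Npr1, the guanylyl cyclase for the atrial and brain peptides, had 0, 3 and 3 counts, and the clearance receptor gene Npr3 had 0, 8 and 0. Npr2 exceeded Npr1 by 4.33 ± 1.37 and Npr3 by 4.54 ± 1.76 on the log2(CPM per kb + 0.1) scale, each in all 3 libraries (exact sign-flip permutation p = 0.25 for both). The direction held in every library, while the sizes depend on the pseudocount, since both comparators had libraries at 0. The gene of the C-type peptide, Nppc, had 0, 180 and 0 counts, and Nppa and Nppb had none. Genes on the other strand overlap exonic bases of each receptor: Gm12473 overlaps 266 of Npr2, Gm16048 559 of Npr1 and Gm5144 321 of Npr3.

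**Figure D3:**
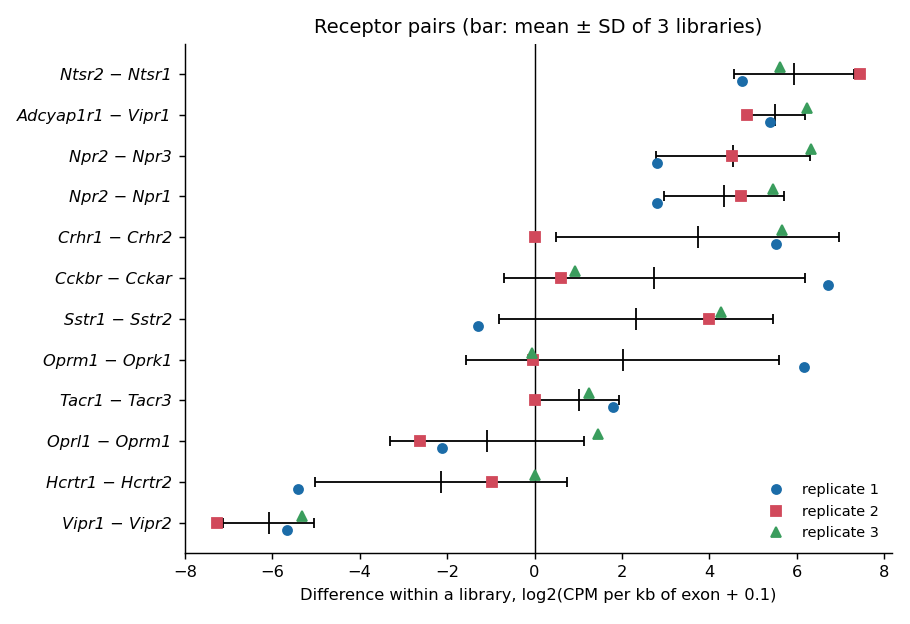
Differences between paired receptor genes within each library on the log2(CPM per kb of exon + 0.1) scale, 1 point per library, with the mean ± SD of 3 libraries as a bar. The 3 points lie on 1 side of 0 for Ntsr2 over Ntsr1, Adcyap1r1 over Vipr1, Npr2 over Npr3 and over Npr1, Cckbr over Cckar, and Vipr1 under Vipr2. For Ntsr2 the side was fixed by Ntsr1 at 0, and the replicate 3 point of Cckbr rests on 2 counts against 0.

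In all, 14 receptor pairs were listed for comparison within a library, chosen with earlier results of these data known. Npy1r with Npy2r and Mc4r with Mc3r were at 0 on both sides and gave no difference. Of the 12 others, 6 had the same sign in all 3 libraries (exact sign-flip permutation p = 0.25 each, 0.50 adjusted). No smaller p is possible with 3 libraries. For Ntsr2 with Ntsr1 the sign was fixed, as Ntsr1 had no count. For Cckbr with Cckar, replicate 3 held 2 counts against 0. The share of other gene pairs with a single sign was not taken, so the number is a description only.

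Receptor levels differed between the libraries beyond counting error. A chi-square test against Poisson counting error covered 17 receptor genes that reached 10 counts in at least 2 libraries. It called 15 of them, at an adjusted p under 0.05 over all 11168 genes tested, of which 96.5% were called. The exceptions were Sstr1 (adjusted p = 0.744) and Vipr1 (adjusted p = 0.780), whose counts agree within sampling noise. In edgeR's quasi-likelihood dispersion test, which compares each gene with others of its level, 0 of 17 receptors and 0% of all genes tested passed an adjusted p of 0.05. Without adjustment, a threshold of 0.05 was passed by Oprm1 and Hcrtr2 (edgeR adjusted p = 0.956 for both) and by 4.27% of all genes. The coefficient of variation was read by level. Between 1 and 10 CPM it had a median of 87.3% over 12 receptor genes, below the median of 104% over 4722 genes of that level. Between 10 and 100 CPM it had a median of 109% over 6 receptor genes, with a range of 61.8% to 148%, beside a median of 57.4% over 6106 genes of that level. For Vipr2 and Adcyap1r1, at more than 100 CPM, it was 68.1% and 58.1%, beside a median of 26.3% and an upper quartile of 38.4% over 1953 genes of 100 to 1000 CPM. The median over all genes fell from bin to bin, and these bins are wide. Vipr2 and Adcyap1r1, at 121 and 116 CPM, lie near the lower end of theirs. The 6 receptor genes of the bin below lie between 10.95 CPM (Cckbr) and 53.2 CPM (Oprm1). Whole-bin medians are thus not matched to the level of each receptor.

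**Figure D4:**
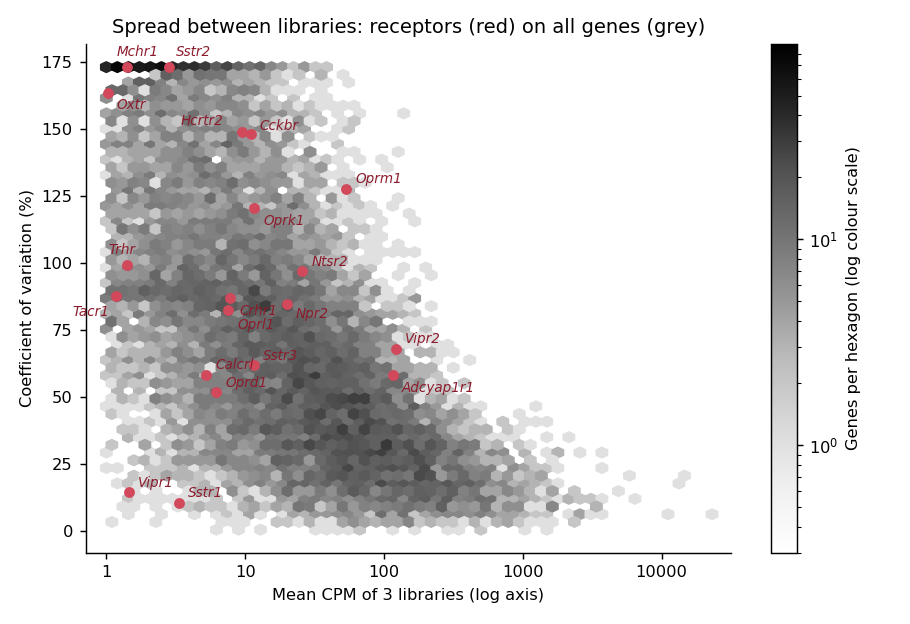
Coefficient of variation between 3 libraries against mean CPM on a log axis, with all genes of at least 1 CPM as grey hexagons (darker for more genes) and the receptor genes as labelled red points. Oprm1, at 53.2 CPM, lies at the upper edge of the cloud, and Sstr1 and Vipr1 lie at its lower edge.

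Counts of 0 in a library also stood beside clear counts in another. Of 19 receptor genes with at least 20 counts in any library, 7 had 0 counts in another: Sstr2, Crhr1, Trhr, Oxtr, Cckar, Hcrtr2 and Mchr1. That is 36.8%, beside 16.4% of the 12814 gene rows with at least 20 counts in any library. The share depends on level: between 1 and 10 CPM it was 6 of 10 receptor genes and 40.1% of 4507 gene rows, and between 10 and 100 CPM it was 0 of 6 receptor genes and 2.82% of 6106. A count of 0 therefore gives no more than an upper limit for that library, and the limit covers counting error only. The number of such receptors was 3, 4 and 5 without replicates 1, 2 and 3. No library was low for all receptors. Replicates 1, 2 and 3 had counts on 19, 21 and 20 of the 41 genes, and they were the highest library for 7, 9 and 12 of the 28 counted genes.

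**Figure D5:**
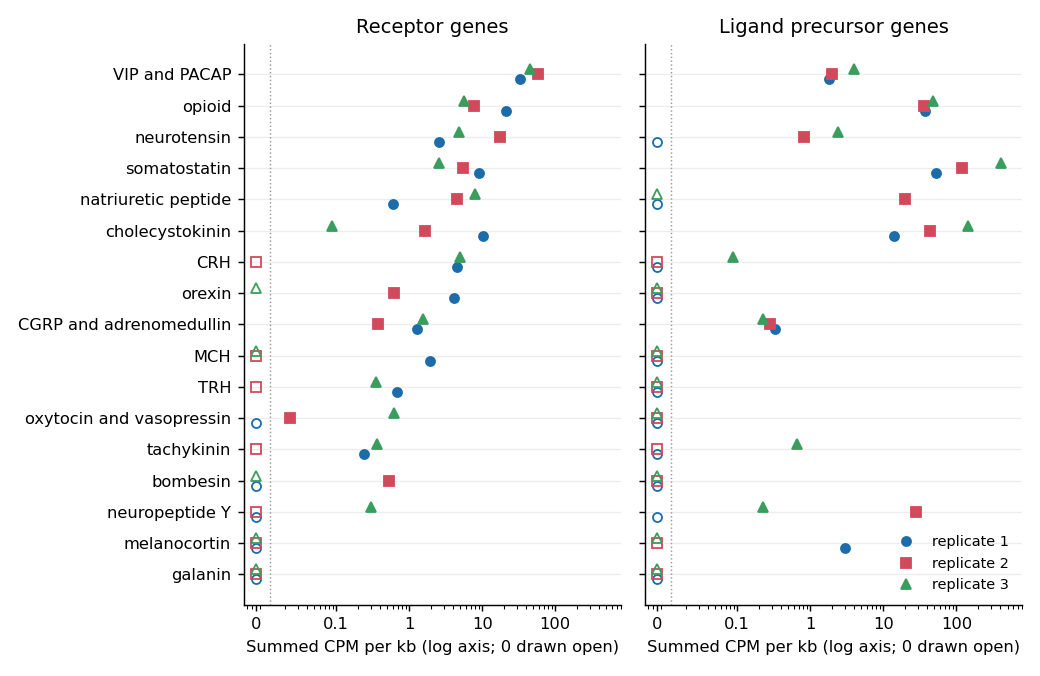
Summed CPM per kb of exon for the receptor genes of each peptide family (left) and for the genes of their peptide precursors (right), on log axes, 1 point per library, with 0 drawn open. The VIP and PACAP family is highest among receptors at 32.7 to 57.9 CPM per kb, and somatostatin is highest among ligands at 51.8 to 403 CPM per kb.

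The genes for the peptides themselves were counted in the same way. Of 33 ligand precursor genes, 4 were counted in every library (12.1%), 10 in some and 19 in none (57.6%). Over all gene rows, 34.2% were counted in every library and 50.6% in none. Over protein-coding genes, these shares were 50.8% and 33.2%. No test was made of the difference from the receptors or from these shares. The 4 were Sst (138 ± 134 CPM; SD, n = 3), Cck (87.0 ± 87.4 CPM), Penk (66.4 ± 10.2 CPM) and Adcyap1. Receptors for all of these were counted in every library as well, namely Sstr1 and Sstr3, Cckbr, the enkephalin receptors Oprm1 and Oprd1, and Adcyap1r1 with Vipr1 and Vipr2. In contrast, the orexin, melanin-concentrating hormone, thyrotropin-releasing hormone, bombesin, and oxytocin and vasopressin families had receptor counts in at least 1 library and no ligand count in any. Oprl1 was counted in every library with its ligand gene Pnoc at 0. Oprk1, Ntsr2, Calcrl and Npr2 were also counted in every library, while Pdyn, Nts, Calca, Adm and Nppc were not. Npy had 0, 138 and 1 counts with Npy1r and Npy2r at 0. Detection of ligand and receptor thus matched in some families only.

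Other receptor lists gave the frame for these counts. Of 43 peptide receptor genes outside the list, 3 were counted in every library, 17 in some and 23 in none. Ednrb, the endothelin B receptor gene, had the highest CPM of them, with 143, 527 and 201 counts (34.8 ± 21.9 CPM; SD, n = 3), followed by Prokr2 with 0, 149 and 0, Pth2r with 107, 0 and 2, and Agtr2 with 25, 39 and 38. Of 35 receptor genes for monoamines and acetylcholine, 10 were counted in every library, 19 in some and 6 in none. Hrh3, a histamine receptor gene, had the highest CPM of these (61.1 ± 24.6 CPM), with Htr5a (27.2 ± 5.7 CPM) and Htr2c (25.2 ± 24.1 CPM) next. Per exon length, the neuropeptide receptors summed to 89.0, 96.2 and 73.7 CPM per kb in replicates 1, 2 and 3, against 55.5, 38.0 and 38.8 CPM per kb for these monoamine and acetylcholine receptors. Vipr2 and Adcyap1r1 alone held 36.4%, 59.9% and 60.0% of the neuropeptide receptor sum. The medians were closer, at 0.180 and 0.150 CPM per kb. Counted in every library were 31.7% and 28.6% of the lists, and at 0 in every library were 31.7% and 17.1%, in that order. No test was made between these lists.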

How the data were processed

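Each library has a table of whole-number counts per gene symbol, as the authors deposited it. STAR 2.0.0e, HTSeq and mm10 appear in the submitters' processing notes. The gene annotation, strand setting and kit were not given in the sources used here. HTSeq's summary rows and a row named unknown, at 0, were left out. Of reads on genes, on no feature or on several genes, 44.1% to 50.2% fell on no feature and 1.77% to 1.94% on several genes. The tables list multiply aligned reads apart from the gene counts.

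From the counts, CPM was computed with TMM-scaled library sizes (edgeR 4.0.16, R 4.3.3). Exon lengths and coordinates come from GENCODE M21 (same build; 23155 of 32531 symbols matched, all 41 receptors included), and promoters from RefSeq (GRCm38.p6). For genes reaching 10 counts in 2 libraries, spread was tested against Poisson error (chi-square) and as glmQLFit's dispersion over its trend (intercept only). Both were checked on simulated data. Pairs were tested within libraries (scipy 1.17.1) on log2(CPM per kb + 0.1), computed from the deposited counts. Alternatives were DESeq2 1.42.0 size factors, total counts, other pseudocounts, thresholds and filters, a robust prior, CPM without length, and leaving out each library.

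The members, gene lists and pairs were chosen with earlier results of these data known. Every receptor was accounted for. Those with a mean of at least 10 CPM were given counts and levels, and those in a listed pair or with at least 20 counts in a library were given counts. Ligands, partners, up to 4 leading genes of each other list and further genes of some marker lists were also named. The protein-coding background, and the count of receptors at 0 beside at least 20 counts in another library with its alternatives, were added after seeing the data.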

Additional observations from a re-analysis of the deposited data

How the results depend on the processing

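Without the filter on low counts, 28 receptors were tested and 23 varied beyond Poisson counting error, beside 88.7% of 16071 genes. With the filter it was 15 of 17. Without replicates 1, 2 and 3 the test called 10 of 12, 8 of 14 and 10 of 13 receptors, beside 80.5%, 81.8% and 82.2% of genes, with fewer receptors passing the filter. The receptors at 0 beside at least 20 counts in another library numbered 3 to 5 with a library left out, since fewer samples were compared. Oprm1 minus Oprk1 ranged from -0.054 to 3.06 with each library left out, and it was -0.054 without replicate 1. The other tested pairs kept their direction under every alternative. For leaving out a library, this was fixed in advance for the 6 pairs of a single sign. It was also fixed for Crhr1 minus Crhr2, Hcrtr1 minus Hcrtr2 and Tacr1 minus Tacr3, where no library had the opposite sign. Oprl1 minus Oprm1 and Sstr1 minus Sstr2 could have reversed and did not. Single libraries set several means: without replicate 1, Oprm1 was at 14.3 CPM, Cckbr at 1.60, Hcrtr2 at 1.36 and Sstr2 at 0. Scaling by DESeq2 size factors or total counts changed no mean by more than 2.24%. With a threshold of 3 counts, 12 receptors were detected in every library and 15 in none. Fits of edgeR without a library called no receptor and 2 to 5 of all genes, and without the filter no receptor and 20 of all genes. No paired analysis was possible because the labels give a single group, so there are no groups whose samples could be paired. The receptor pairs set genes side by side within a library. Depth limits the low receptors: a count of 0 in a library allows up to 0.397 CPM there, counting error only.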
